A study of Mus musculus with 6 samples.

Results

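The genes described are 8 chemokine receptors that effector T cells can carry: Cxcr3, Cxcr4, Cxcr5, Cxcr6, Ccr2, Ccr4, Ccr8 and Cx3cr1. A peak of open chromatin was counted for a receptor if that receptor was the nearest protein-coding gene body to the peak's summit, with the summit inside the gene or within 100 kb of it. By this rule 442 of 573921 peaks in 6 libraries belonged to the 8 receptors, out of 21883 protein-coding genes. When the peaks of all libraries were merged into regions wherever they overlapped, 97 of 134174 regions had a receptor nearest to their highest summit.

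The chromatin was that of mouse CD8+ T cells, profiled by ATAC-seq, an assay whose transposase cuts and tags DNA where chromatin is open. The cells had been isolated from spleen by removing the other cells, then activated with antibodies against CD3 (5 µg/mL) and CD28 (1 µg/mL). For 48 h they shared the medium of a transwell with, in the insert above them, PD-1-resistant lung adenocarcinoma cells. In the Res-shFabp7 group (3 biological replicates) the tumour cells carried a short hairpin RNA against Fabp7, a fatty acid binding protein, and in the Res-ctrl group (3 biological replicates) they were the control cells. Because the tumour cells and not the T cells were knocked down, these libraries hold no check of the knockdown.

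Chemokine receptors are membrane receptors coupled to inhibitory G proteins. Ligand binding turns the cell toward the source of the chemokine, and arrestins, kinases and RGS proteins then dampen the signal. Naive T cells carry few receptors for inflamed tissue, and activation in the spleen or lymph node switches on the set that takes effector cells into tissue and tumours. In bulk chromatin, fewer cells with an open region and less opening per cell cannot be told apart.

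The promoter sequences of 4 receptors are printed because their start regions carry the results below: that of Ccr8 was higher with Res-shFabp7, that of its neighbour Cx3cr1 was among the lowest peaks, that of Cxcr4 was tall in every library, and at Cxcr6 the summits fell on both sides of the gene start. Each is the 250 bases before the gene start from the RefSeq promoter table of GRCm38.p6, written 5′ to 3′ on the gene's strand, and capitals mark a match to one of 6 motifs searched on both strands. The windows are chr9:120091883-120092132 (plus strand) for Ccr8, chr9:120068297-120068546 (minus strand) for Cx3cr1, chr1:128592300-128592549 (minus strand) for Cxcr4 and chr9:123806227-123806476 (plus strand) for Cxcr6.
Ccr8: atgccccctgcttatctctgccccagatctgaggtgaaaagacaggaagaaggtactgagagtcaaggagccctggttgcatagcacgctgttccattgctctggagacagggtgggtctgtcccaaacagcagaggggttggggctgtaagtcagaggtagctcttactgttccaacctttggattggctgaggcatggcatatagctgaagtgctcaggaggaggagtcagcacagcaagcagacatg
Cx3cr1: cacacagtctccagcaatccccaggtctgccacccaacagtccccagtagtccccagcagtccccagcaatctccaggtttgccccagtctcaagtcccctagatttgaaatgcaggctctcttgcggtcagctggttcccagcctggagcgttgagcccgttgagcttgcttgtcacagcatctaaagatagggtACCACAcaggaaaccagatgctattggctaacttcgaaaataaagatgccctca
Cxcr4: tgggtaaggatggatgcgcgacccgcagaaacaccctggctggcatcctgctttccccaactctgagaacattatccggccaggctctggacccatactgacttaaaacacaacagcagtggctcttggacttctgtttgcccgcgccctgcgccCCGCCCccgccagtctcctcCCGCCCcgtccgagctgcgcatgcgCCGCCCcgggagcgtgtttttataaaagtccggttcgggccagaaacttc
Cxcr6: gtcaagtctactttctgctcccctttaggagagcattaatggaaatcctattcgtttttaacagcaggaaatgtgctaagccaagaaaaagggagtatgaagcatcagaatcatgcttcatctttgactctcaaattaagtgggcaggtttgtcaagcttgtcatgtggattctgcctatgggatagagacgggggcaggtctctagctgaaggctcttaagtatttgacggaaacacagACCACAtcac

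The motifs were TGTGGT for RUNX factors, TGANTCA for AP-1, GGTGTGA for T-box factors, CCGGAAG for ETS factors, GGGCGG for KLF and SP factors and CACGTG for E-box factors. Of 32851 promoter windows of the same length in the table, 14.0% held the RUNX letters, 6.75% AP-1, 3.33% T-box, 6.91% ETS, 32.7% KLF and SP, and 6.02% E-box. The table held 7 of the 8 receptors, and Cxcr5 was the other one. Cx3cr1, Cxcr6 and Cxcr3 each held 1 RUNX match, read as ACCACA on the gene's strand, at positions −54 to −49, −10 to −5 and −110 to −105 from the gene start. Cxcr4 held 3 KLF and SP matches, read as CCGCCC, and no other receptor held any. Its window had 61.2% G and C with 19 CG dinucleotides, where the median window of the table had 52.4% and 6. Ccr4 held 1 AP-1 match, TGAGTCA, at −143 to −137, and the windows of Ccr8 and Ccr2 held none of the letters searched. A peak lay over part of the window in all 6 libraries for 6 of the 7 receptors, and over none of the Ccr2 window in any library. At Ccr8 the peaks covered 250, 250 and 223 of the 250 bases with Res-shFabp7 and 208, 222 and 224 with Res-ctrl.

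The libraries differed in how much was called, which touches every count below. The lists held 100243 to 105796 peaks with Res-shFabp7 and 82153 to 96310 with Res-ctrl. The usual background pileup, a relative measure of depth, was 0.87 to 1.03 with Res-shFabp7, against 0.71, 0.61 and 1.01 in Res-ctrl replicates 1, 2 and 3. Res-ctrl replicates 1 and 2 were the shallow libraries by this measure, and replicate 3 lay with the Res-shFabp7 libraries. All 6 CD8 T cell markers examined (Cd8a, Cd8b1, Cd3e, Cd3g, Runx3 and Bcl11b) had a region open in all 6 libraries, with 91 such regions between them. The same held for all 6 markers of CD4 and regulatory T cells, for 4 of 6 myeloid, 4 of 6 NK cell, 4 of 6 B cell and 2 of 6 epithelial markers. No peak was assigned in any library to the B cell gene Ms4a1, the keratin gene Krt8 or the lung epithelial gene Sftpc.

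The number of peaks at these receptors did not separate the groups. The 8 receptors together had 76, 77 and 73 peaks in the Res-shFabp7 libraries and 69, 70 and 77 in the Res-ctrl libraries, so the groups met at 77. The means were 75.3 ± 2.08 with Res-shFabp7, against 72 ± 4.36 with Res-ctrl (SD, n = 3 each), a difference of 3.33 peaks (two-sided exact permutation p = 0.4). The Res-shFabp7 lists were longer, and the receptors took a smaller part of them. That part was on average 0.728 ± 0.000763 of every 1000 peaks in the Res-shFabp7 lists, against 0.822 ± 0.0273 in the Res-ctrl lists (SD over 3 libraries). On that scale the groups did not overlap (exact permutation p = 0.1, the lowest possible with 3 libraries a group). With the 82153 strongest peaks of each library, the receptors had 68, 67 and 60 peaks with Res-shFabp7 and 65, 70 and 70 with Res-ctrl, and the difference of −3.33 peaks pointed the other way (exact permutation p = 0.5).

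Cxcr4 had the most peaks and Cxcr6 the fewest. Cxcr4, the receptor for Cxcl12 that holds cells in bone marrow, had 26, 25 and 24 peaks with Res-shFabp7 and 21, 22 and 22 with Res-ctrl. Cx3cr1, the receptor for fractalkine that marks cytotoxic effector cells, had 7 peaks in each Res-shFabp7 library and 9, 8 and 8 in the Res-ctrl libraries. These were the 2 of 8 receptors whose libraries did not overlap, and the exact permutation p of each was 0.1, or 0.849 after Benjamini-Hochberg adjustment over 16421 genes. Among all those genes the groups did not overlap with more peaks in Res-shFabp7 for 11.2%, and with fewer for 0.536%. With equal numbers of peaks the Cxcr4 difference was −0.333 peaks, in place of 3.33, while Cx3cr1 still did not overlap. For the other 6 receptors the libraries of the groups overlapped, but without Res-ctrl replicate 3 the number of receptors with no overlap was 4, with Ccr2 and Ccr8 added. The shares of all genes above are for the full lists of all 6 libraries. None is given for equal numbers or for a left-out library, where fewer libraries separate more easily. Cxcr5, the receptor for Cxcl13 that leads cells to B cell follicles, had 12 to 14 peaks with Res-shFabp7 and 10 to 14 with Res-ctrl. Ccr2, the receptor for Ccl2, had 9 to 12 and 6 to 12 peaks in those groups. Ccr8, the receptor for Ccl1, had 8 in each Res-shFabp7 library and 8 to 10 with Res-ctrl. Ccr4, the receptor for Ccl17 and Ccl22, had 7 to 9 and 7 to 8. Cxcr3, the receptor for the interferon-induced chemokines Cxcl9 and Cxcl10, had 3 to 5 and 3 to 4.

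**Figure D1:**
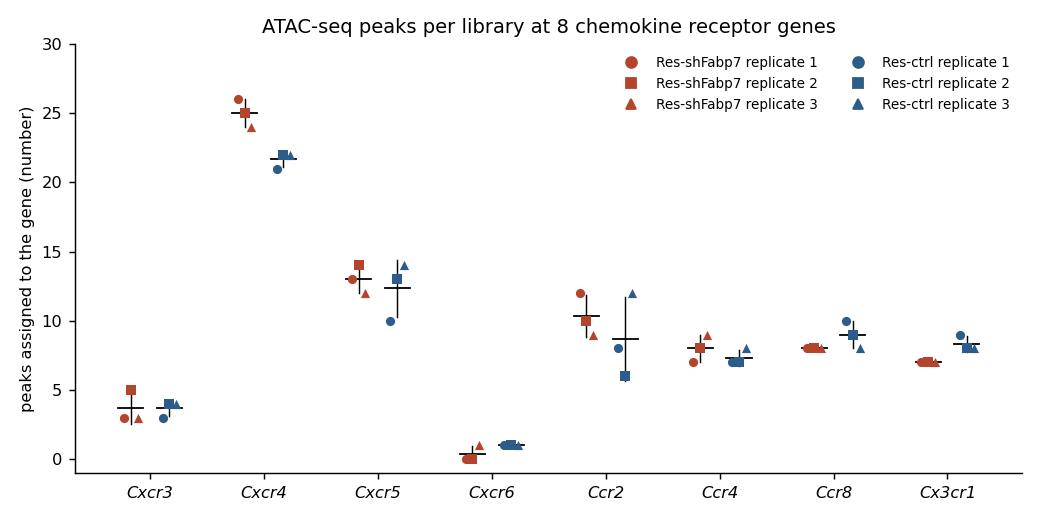
Peaks per library assigned to each of the 8 receptors (vertical axis, number of peaks), with Res-shFabp7 in red on the left and Res-ctrl in blue on the right of each gene; symbols are libraries, and lines are the mean and SD of 3. Cxcr4 stands at 24 to 26 peaks with Res-shFabp7 and 21 to 22 with Res-ctrl, and Cx3cr1 at 7 with Res-shFabp7 and 8 to 9 with Res-ctrl.

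Cxcr6, the receptor for the membrane-bound chemokine Cxcl16, shows how the assignment of a peak can turn on a few bases. The gene (chr9:123806477-123811754) lies inside another gene, Fyco1 (chr9:123789500-123851899). It had a single region, chr9:123806281-123806584, with a peak in every library. The summits lay at −15, −13 and 16 bp from the gene start with Res-shFabp7, and at 0, 29 and 27 bp with Res-ctrl. In Res-shFabp7 replicates 1 and 2 the summit therefore fell just outside Cxcr6 and went to Fyco1, which gave Cxcr6 0, 0 and 1 peaks with Res-shFabp7 and 1 in each Res-ctrl library. The height of the region was 139, 138 and 157 with Res-shFabp7 and 132, 128 and 141 with Res-ctrl, so the libraries overlapped. Height here and below is a library's highest pileup in the region, a coverage signal. It is given after quantile normalisation of the 6 libraries over the 56610 regions open in all of them. The Cxcr6 region was taller than 87.4% of those regions (log2 difference 0.11, SE 0.106, limma adjusted p = 0.601).

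Of the 97 receptor regions, 49 had a peak in all 6 libraries, 29 in 2 to 5 libraries and 19 in a single library. The part open throughout was 50.5%, where it was 42.2% of all regions. Those 49 regions had a median length of 372 bp, and the other receptor regions one of 130 bp. Most receptor regions lay away from the genes: 19 were inside a receptor gene, 9 within 1 kb of one and 69 farther out. The 69 were 71.1%, where 30.02% of the 127541 regions assigned to any gene lay that far. Of the 69, 26 were at Cxcr4. The receptor genes are 2613 to 19614 bp long, and the share was not compared with genes of like length and spacing. Cxcr4 led with 31 regions, 15 of them open throughout, a number that 3.69% of the 13993 genes with such a region had or exceeded. Its nearest neighbours were 170783 bp (Dars) and 680891 bp (Thsd7b) away. The whole 100 kb was therefore counted for it on the Thsd7b side. On the Dars side only the stretch up to the midpoint between the genes was. Its farthest region lay 83.6 kb out, on the Thsd7b side. Cxcr5 had 14 regions with 7 open throughout, Ccr8 11 with 7, Cx3cr1 9 with 7, Ccr4 10 with 6, Ccr2 15 with 4, Cxcr3 6 with 2 and Cxcr6 1 with 1.

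A single receptor region was called only with Res-shFabp7 and a single one only with Res-ctrl, meaning a peak in 3 of 3 libraries of one group and 0 of 3 of the other. Each was 1.03% of the receptor regions. Of all regions, 2.28% had a peak in the Res-shFabp7 libraries alone and 0.155% in the Res-ctrl libraries alone. Receptor regions with a peak in 3 of 3 Res-shFabp7 but fewer Res-ctrl libraries numbered 10 (10.3%, against 13.0% of all regions), and those with a peak in 3 of 3 Res-ctrl but fewer Res-shFabp7 libraries numbered 4 (4.12%, against 2.22%). The region called only with Res-shFabp7 lay 12583 bp upstream of Cxcr4, at chr1:128604843-128605004. Its peaks had pileups of 30, 21 and 20 and stood 4.62, 3.29 and 3.21 times over the local background, with −log10 q of 10.5, 4.56 and 4.17. It was not among the regions of 1 group when each library was limited to 82153 peaks. The region called only with Res-ctrl lay inside Cx3cr1, 11829 bp from its start, at chr9:120056248-120056529. Its peaks in the Res-ctrl libraries had pileups of 13, 16 and 21, were 4.197, 5.33 and 4.45 times over background and had −log10 q of 4.403, 7.21 and 7.25. It was still called only with Res-ctrl at 82153 peaks a library, where 0.527% of all regions were, but not when a peak had to cover 50% of the region. At 82153 peaks a library, a region at −2815 bp from the start of Ccr2 was called only with Res-shFabp7, where 1.13% of all regions were. Without Res-ctrl replicate 3, 4 regions had peaks in the Res-shFabp7 libraries alone, and without Res-ctrl replicate 2, or any 1 of the Res-shFabp7 libraries, 2 did. With a library left out the rule is easier to meet, and the share of all regions is not given for those sets. Without Res-ctrl replicate 2 the Cx3cr1 region was not among the 2 called only with Res-ctrl. The peaks of Res-ctrl replicates 1 and 3 there did not overlap each other and were joined only through the peak of replicate 2. It is thus not shown to be 1 site open in all 3 Res-ctrl libraries. All regions named here as called in 1 group alone are weak peaks next to the tall regions of the same genes.

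Peak height gave a graded comparison at the 49 regions open throughout. Called higher with Res-shFabp7 were 3 of them (6.12%), 1 upstream of Cxcr4 and 2 at the start of Ccr8. Called lower were 0 (limma on log2 heights, Benjamini-Hochberg adjusted p under 0.05 over 56610 regions). Of all 56610 regions, 3.13% were called higher and 1.40% lower, 1773 and 792 in number. Scaling to a common median instead gave 1875 higher and 2010 lower, with 3 and 1 receptor regions. With fold over background in place of pileup, 0 receptor regions and 0 of all regions were called. Merging across 200 bp joined the 2 regions of Ccr8, and then 2 receptor regions and 1547 of all regions were called higher. Without Res-shFabp7 replicate 1, Res-ctrl replicate 1 or Res-ctrl replicate 2, 1 receptor region was called higher, and without Res-ctrl replicate 3, 5 were called higher and 1 lower. The changes of the receptor regions ran from −0.75 to 0.65 on the log2 scale with a median of 0.02, where the median of all regions was −0.01, and 28 were above 0 and 21 below. By the unadjusted p, 11 of the 49 were higher and 5 lower at 0.05, where 10.5% and 8.89% of all regions were. The libraries of the groups did not overlap at 7 regions that were higher and 6 that were lower, where 11.2% and 10.6% of all regions were.

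**Figure D2:**
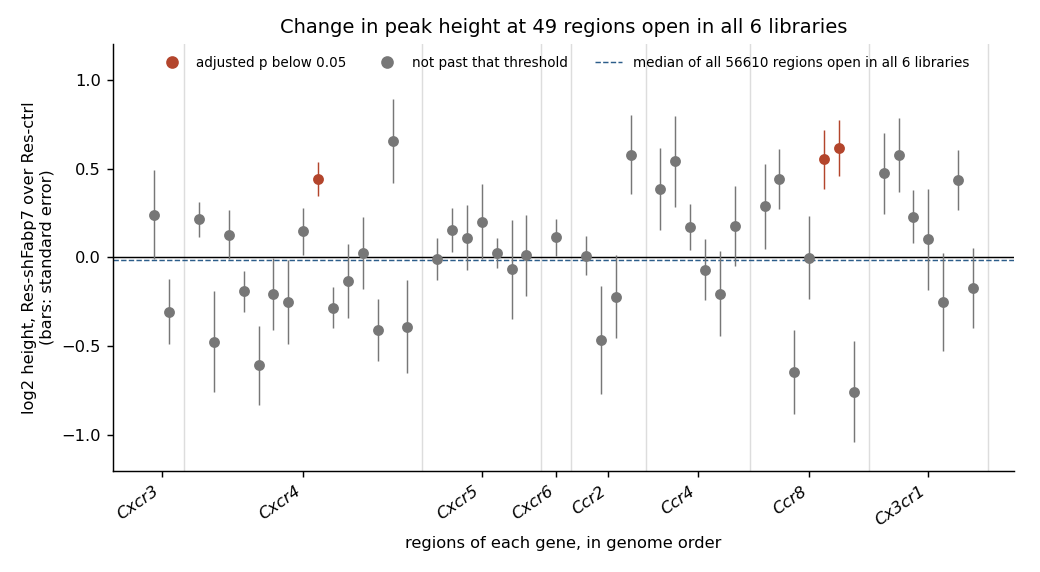
Log2 difference in normalised peak height, Res-shFabp7 over Res-ctrl (vertical axis), at the 49 receptor regions open in all 6 libraries, grouped by gene and in genome order along the horizontal axis; bars are standard errors from limma. The 3 regions in red passed the threshold, 1 at Cxcr4 (0.44) and 2 at Ccr8 (0.55 and 0.62), and every region of the other 6 genes is grey.

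At Cxcr4 the height of 1 region rose with Res-shFabp7, and that call held in every fit that left out a library. A region 19712 bp upstream of the gene (chr1:128611802-128612214) had a height of 197, 189 and 203 with Res-shFabp7 and 142, 136 and 157 with Res-ctrl. Every Res-shFabp7 library lay above every Res-ctrl library. The means were 196 ± 7.04 with Res-shFabp7, against 145 ± 10.6 with Res-ctrl (SD, n = 3 each), a log2 difference of 0.44 (SE 0.0958, limma adjusted p = 0.00320). The pileup before normalisation was 215, 196 and 223 with Res-shFabp7 and 123, 105 and 187 with Res-ctrl. The fold over local background, which the authors also deposited, was 20.4, 19.6 and 19.7 with Res-shFabp7 and 15.1, 14.1 and 15.9 with Res-ctrl, so on these scales too the libraries were apart. In the fits without a library its adjusted p was 0.00181 to 0.0376. Fitted on fold over background the difference was 0.33 (limma adjusted p = 0.211), and on that scale 0 of 56610 regions passed, the lowest adjusted p being 0.0508, with 7888 regions, 8 of them at receptors, at an unadjusted p under 0.05.

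None of the other 14 regions of Cxcr4 passed the threshold. The region at the gene start (chr1:128592063-128592903, summit 346 bp upstream) had 102, 116 and 118 with Res-shFabp7 and 120, 133 and 131 with Res-ctrl, a log2 difference of −0.19 (SE 0.114, limma adjusted p = 0.361). The region 39228 bp beyond the end of the gene (chr1:128548546-128549418) had 190, 167 and 187 with Res-shFabp7 and 135, 170 and 165 with Res-ctrl, a difference of 0.21 (adjusted p = 0.214). At the start the libraries of the groups did not overlap, with the Res-shFabp7 values below, and at the other region they did. The separation at the start was seen only after normalisation. Before it the pileup was 114, 121 and 129 with Res-shFabp7 and 103, 102 and 156 with Res-ctrl. The fold over background was 15.8, 18.5 and 18.1 with Res-shFabp7 and 17.7, 18.3 and 19.0 with Res-ctrl, so the groups overlapped on both scales. A region 22680 bp upstream, the next tall one beyond the changed region, had 91.9, 118 and 124 with Res-shFabp7 and 123, 142 and 139 with Res-ctrl (−0.28, adjusted p = 0.157), and was called lower under median scaling alone (−0.38, adjusted p = 0.0415). Over the 15 regions of Cxcr4, 6 differences were above 0 and 9 below.

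**Figure D3:**
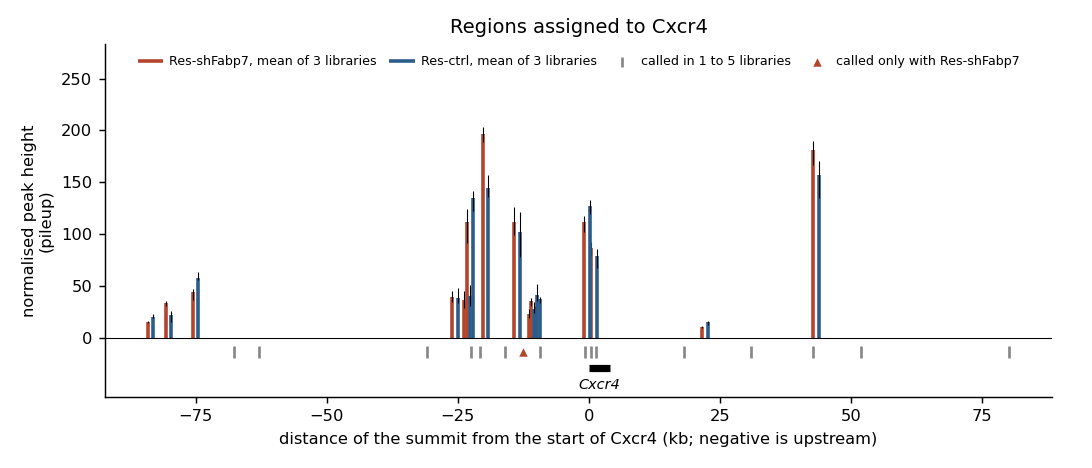
Map of the regions assigned to Cxcr4 by distance of the summit from the gene start (kb, upstream negative) against mean normalised height in Res-shFabp7 (red) and Res-ctrl (blue) libraries; each pair of bars is set on both sides of its summit, thin lines span the 3 libraries, ticks are regions called in 1 to 5 libraries and the triangle is the region called only with Res-shFabp7. The tallest Res-shFabp7 bar (196, against 145 in Res-ctrl) is the region 19712 bp upstream, and at the gene start the Res-ctrl bar is the taller one.

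At the start of Ccr8, a receptor best known from regulatory T cells and skin-homing T cells, normalised height was on average greater with Res-shFabp7. The region over the promoter printed above (chr9:120091845-120092244, summit 67 bp upstream) had 112, 80.6 and 79.0 with Res-shFabp7 and 55.7, 46.6 and 76.2 with Res-ctrl. The groups were apart, but Res-ctrl replicate 3 came close to the lower Res-shFabp7 libraries. The means were 90.4 ± 18.4 with Res-shFabp7, against 59.5 ± 15.1 with Res-ctrl (SD, n = 3 each), a log2 difference of 0.62 (SE 0.158, limma adjusted p = 0.0135). The call was lost without Res-shFabp7 replicate 1 (adjusted p = 0.207), without Res-ctrl replicate 1 (0.0607) and without Res-ctrl replicate 2 (0.110). Before normalisation the pileup was 124, 85 and 87 with Res-shFabp7 and 46, 35 and 91 with Res-ctrl, and the fold over background was 14.9, 13.4 and 12.2 with Res-shFabp7 and 11.3, 8.97 and 13.6 with Res-ctrl. On both of those scales Res-ctrl replicate 3 lay within the Res-shFabp7 range, and the fitted difference in fold was 0.14 (limma adjusted p = 0.716).

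A neighbouring region 799 bp upstream of Ccr8 (chr9:120091068-120091665) had 77.2, 55.7 and 74.5 with Res-shFabp7 and 44.6, 46.6 and 48.9 with Res-ctrl. The groups did not overlap, with means of 69.1 ± 11.7 with Res-shFabp7, against 46.7 ± 2.18 with Res-ctrl (SD, n = 3 each), and the log2 difference was 0.55 (SE 0.168, limma adjusted p = 0.0408). Here the call was lost without Res-shFabp7 replicate 1 (adjusted p = 0.225) or replicate 3 (0.181), and without Res-ctrl replicate 1 (0.123) or replicate 2 (0.0795). The fitted difference in fold over background was 0.10 (adjusted p = 0.835). The regions at −67 and −799 bp are not separate pieces of evidence: merged across gaps of up to 200 bp they form 1 region, with a difference of 0.61 (adjusted p = 0.0159).

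Elsewhere around Ccr8 the heights pointed both ways. The region 9196 bp upstream had 67.5, 60.5 and 56.9 with Res-shFabp7 and 43.0, 45.6 and 47.3 with Res-ctrl (0.44, adjusted p = 0.121). The region 7518 bp upstream had 18.9, 22.2 and 20.7 with Res-shFabp7 and 40.8, 25.02 and 32.4 with Res-ctrl (−0.64, adjusted p = 0.105). The libraries did not overlap at either region, and neither passed the threshold. The lowest receptor region by log2 difference was also at Ccr8, 3964 bp beyond its end, with 11.3, 13.9 and 10.5 with Res-shFabp7 and 28.9, 19.6 and 13.9 with Res-ctrl (−0.75, adjusted p = 0.110). The groups met at 13.9, and without Res-ctrl replicate 3 it was called lower (−1.01, adjusted p = 0.0367). Markers of CD4 and regulatory T cells, cells in which Ccr8 and Ccr4 are also used, had 44 regions open throughout, of which 0 were called higher and 1, at Zbtb7b, lower. Their mean height was 28.5 to 29.5 in the Res-shFabp7 libraries and 29.9 to 31.8 in the Res-ctrl libraries. B cell markers had 8 such regions with a mean height of 26.5 to 27.3 with Res-shFabp7 and 20.7 to 22.5 with Res-ctrl, and 3 of them, all at Pax5, were called higher. Cd79a had no region open throughout and Ms4a1 no peak at all. Of the 91 regions open throughout at CD8 T cell markers, 0 were called higher and 1, at Cd3e, lower. The mean height of the 91 was 45.9 to 46.8 with Res-shFabp7 and 46.3 to 48.0 with Res-ctrl. The part of other cells in the receptor results was not tested.

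Cx3cr1 lies 23837 bp from Ccr8, and the regions between the genes were split by which gene is nearer. At its own start (chr9:120068165-120068407) the peak was low, at 18.9, 10.3 and 17.1 with Res-shFabp7 and 16.8, 11.1 and 14.5 with Res-ctrl, taller than 9.68% of regions open throughout. The groups overlapped (log2 difference 0.10, adjusted p = 0.888). Its tallest regions were elsewhere: one inside the gene, 13325 bp from the start, had 72.3, 98.6 and 78.3 with Res-shFabp7 and 66.1, 64.8 and 81.0 with Res-ctrl (0.23, adjusted p = 0.402). Another, 6366 bp upstream on the side of Ccr8, had 85.2, 56.7 and 61.3 with Res-shFabp7 and 45.6, 55.7 and 47.3 with Res-ctrl (0.43, adjusted p = 0.126). The libraries of the second did not overlap, and neither passed the threshold. A region inside the gene, 18679 bp from the start, had 47.6, 44.6 and 47.6 with Res-shFabp7 and 21.8, 36.9 and 38.2 with Res-ctrl (0.57, adjusted p = 0.0941), and passed in the fit without Res-ctrl replicate 3 (0.72, adjusted p = 0.0463). The region called only with Res-ctrl lies between the start and both of these regions of the gene body.

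**Figure D4:**
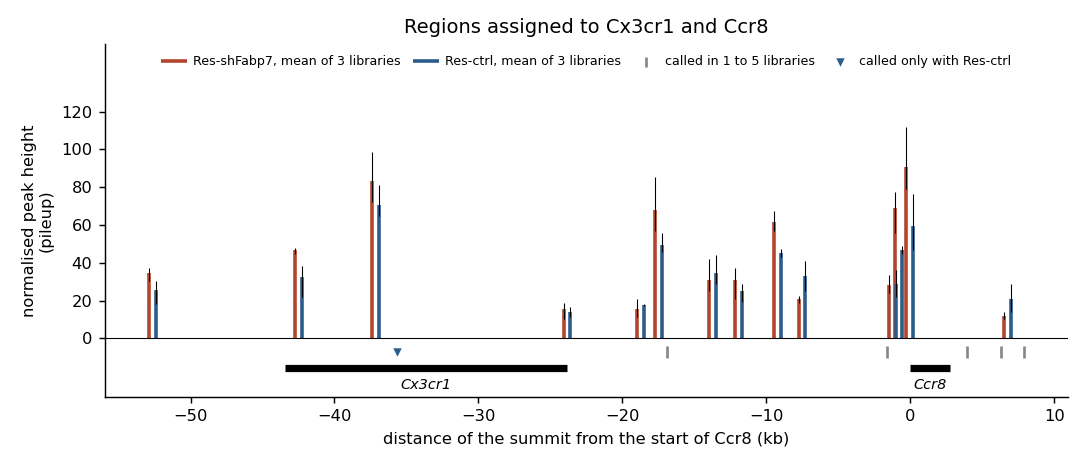
Map of the regions assigned to Cx3cr1 and Ccr8 by distance of the summit from the start of Ccr8 (kb) against mean normalised height in Res-shFabp7 (red) and Res-ctrl (blue) libraries; each pair of bars is set on both sides of its summit, thin lines span the 3 libraries, ticks are regions called in 1 to 5 libraries and the triangle is the region called only with Res-ctrl. The bars beside the start of Ccr8 average 90.4 with Res-shFabp7 and 59.5 with Res-ctrl, and the triangle lies inside Cx3cr1.

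The start regions of Cxcr3 and Ccr4 showed no call. Cxcr3 (chrX:101731535-101734147), on effector cells the receptor that follows interferon-induced chemokines, had a start region of 31.3, 18.1 and 32.6 with Res-shFabp7 and 18.1, 25.02 and 24.7 with Res-ctrl (log2 difference 0.24, adjusted p = 0.644). Its other region open throughout, 3159 bp upstream, was taller, with 53.1, 34.5 and 48.4 with Res-shFabp7 and 60.5, 55.7 and 49.6 with Res-ctrl (−0.30, adjusted p = 0.360). The groups overlapped at both. Ccr4 (chr9:114490316-114505476) had 96.6, 114 and 98.6 at its start with Res-shFabp7 and 86.9, 81.4 and 108 with Res-ctrl (0.17, adjusted p = 0.506). Peaks covered all 250 bases of its promoter window, the one with the AP-1 letters, in each library. The next region of Ccr4, at −1860 bp and inside the annotated gene body, had 55.7, 47.8 and 51.4 with Res-shFabp7 and 58.0, 55.7 and 48.9 with Res-ctrl (−0.07, adjusted p = 0.869). The groups overlapped at both regions of Ccr4.

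Ccr2 (chr9:124101918-124109140), which takes cells along Ccl2 into inflamed tissue, was the receptor whose promoter window had no peak. The region closest to its start, at 124101116 to 124101207, was called in 1 library, Res-ctrl replicate 1, so its height was not fitted. Its tallest region lay 33311 bp before the gene body (chr9:124068397-124069109), with 142, 132 and 130 with Res-shFabp7 and 118, 155 and 131 with Res-ctrl (0.01, adjusted p = 0.976). The next, 5796 bp beyond the end, had 49.4, 34.5 and 39.2 with Res-shFabp7 and 25.5, 20.7 and 38.2 with Res-ctrl (0.58, adjusted p = 0.1205), and passed in the fit without Res-ctrl replicate 3 (0.82, adjusted p = 0.0309). The groups overlapped at both.

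Cxcr5 (chr9:44511787-44526444) overlaps Bcl9l in part, and none of its regions had its summit inside both genes. It held the tallest region of all 8 receptors, 6822 bp beyond one end of the gene (chr9:44532984-44533605), with 239, 233 and 225 with Res-shFabp7 and 196, 257 and 236 with Res-ctrl. It stood above 95.5% of the regions open throughout, and the groups overlapped (0.02, adjusted p = 0.911). Its second tallest region, inside the gene (chr9:44515360-44516167), had 111, 117 and 155 with Res-shFabp7 and 112, 142 and 129 with Res-ctrl (−0.01, adjusted p = 0.980). A region 31 bp outside one boundary of the gene (chr9:44526307-44526548) was called in 3 Res-shFabp7 and 2 Res-ctrl libraries. Another, 241 bp outside the same boundary, was open throughout (0.20, adjusted p = 0.651). Cxcr5 was not in the promoter table, so which boundary is its start was not used here, and these may be start regions. The differences of all 7 regions of Cxcr5 lay between −0.07 and 0.20.

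**Figure D5:**
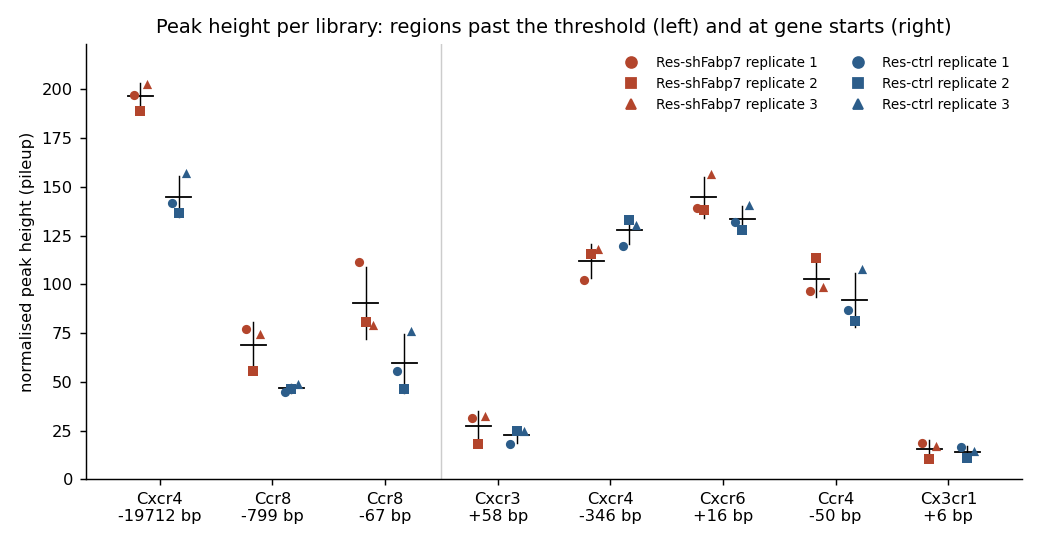
Normalised peak height per library (vertical axis, pileup) for the 3 receptor regions past the threshold, left of the grey line, and for the start regions of the other receptors with one open throughout, right of it; positions under the gene names are distances of the summit from the gene start, red symbols are Res-shFabp7, blue symbols are Res-ctrl, and lines are the mean and SD of 3. On the left every red symbol lies above every blue one of the same region (at −67 bp of Ccr8, 79.0 against 76.2 at the closest), and on the right the groups overlap at Cxcr3, Cxcr6, Ccr4 and Cx3cr1 and are apart at Cxcr4, lower with Res-shFabp7.

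Among the other chemokine receptors, those for homing and for inflamed tissue alike, 5 of 61 regions open throughout were higher with Res-shFabp7 and 0 lower, read against 3.13% and 1.40% of all regions. These 15 genes had such a region in 12 cases, the exceptions being the atypical receptors Ackr1, Ackr3 and Ackr4. Ccr1, a receptor for inflammatory chemokines, had a region 25330 bp from the gene with 221, 197 and 200 with Res-shFabp7 and 116, 130 and 137 with Res-ctrl (log2 difference 0.69, SE 0.0987, limma adjusted p = 2.33e-05). The groups did not overlap there. Xcr1 had 1 region higher (0.41, adjusted p = 0.0213), and Ccr7, which returns cells to lymph nodes, had 2 (0.28 at the one with the lower p, adjusted p = 0.00966). The regions called only with Res-shFabp7 numbered 6 of 145 at these genes, 3 at Ccr3 and 3 at Ccrl2, and 0 were called only with Res-ctrl, read against 2.28% and 0.155% of all regions. The median log2 difference of the 61 was 0.03, where that of all regions was −0.01.

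Few genes for the receptors' ligands had a region open throughout. Of 14 ligands, 13 were in the gene table (Cxcl11 was the other) and 5 had a region open throughout. No peak was assigned to Cxcl10, Ccl2, Ccl8 or Ccl12 in any library. Of the 13 regions, 3 were higher with Res-shFabp7 and 0 lower, read against 3.13% and 1.40% of all regions: 2 at Ccl1, which encodes the ligand of Ccr8, and 1 at Ccl17, which encodes a ligand of Ccr4. The Ccl1 region 15407 bp from the gene had 40.01, 45.6 and 50.4 with Res-shFabp7 and 23.0, 27.6 and 35.6 with Res-ctrl (0.68, SE 0.209, limma adjusted p = 0.0458). The Ccl17 region had 66.1, 59.5 and 62.3 with Res-shFabp7 and 30.4, 38.2 and 47.3 with Res-ctrl (0.72, SE 0.182, adjusted p = 0.0118). The groups did not overlap at either. Cx3cl1, the ligand of Cx3cr1, had 2 regions called only with Res-shFabp7, of 35 at all ligand genes, where 2.28% of all regions were. The median log2 difference of the 13 was 0.23.

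All 18 genes of receptor signalling and its dampening had regions open throughout, 186 in all, of which 7 were higher with Res-shFabp7 and 2 lower, read against 3.13% and 1.40% of all regions, and the counts were near those shares. The median log2 difference of the 186 was −0.0029, where that of all regions was −0.01. Rgs1, which shortens G protein signals, had 4 of the higher ones, the one with the lowest p 5204 bp from the gene with 65.1, 45.6 and 58.7 with Res-shFabp7 and 16.8, 26.5 and 39.8 with Res-ctrl (1.0997, SE 0.219, limma adjusted p = 0.00123). The others were 2 at Pik3cg, a lipid kinase (0.69 at the one with the lower p, adjusted p = 0.0394), and 1 at Dock2, an activator of Rac (0.97, adjusted p = 0.0193). Both lower regions were at Prex1, another activator of Rac, of which the one with the lower p had 132, 94.0 and 113 with Res-shFabp7 and 182, 165 and 182 with Res-ctrl (−0.65, SE 0.11, adjusted p = 0.000141). The groups did not overlap at these regions of Rgs1 and Prex1. Called only with Res-shFabp7 were 10 of the 445 regions of these genes, near the 2.28% of all regions. They were 5 at Elmo1, a partner of Dock2, 3 at Dock2, 1 at Pik3cg and 1 at Rgs2, which like Rgs1 shortens G protein signals. Called only with Res-ctrl were 2, 1 at Dock2 and 1 at Prex1, against 0.155% of all regions.

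Averaged over their 49 regions, the receptors stood at 44.5, 42.6 and 44.2 with Res-shFabp7 and 39.7, 42.6 and 45.6 with Res-ctrl, so that Res-ctrl replicate 3 was the highest library and Res-ctrl replicate 1 the lowest. The genes whose mean height followed most closely over the 6 libraries were Ube2d3 (Pearson r = 0.997), Igf2r (0.990), Ppp1r2 (0.979), Mef2a (0.976) and Tcf4 (0.971), out of 6595 genes with at least 3 such regions, 49 of which reached 0.9. These values describe 6 libraries that share the same normalisation.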

How the data were processed

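ATAC-seq peak lists of 6 libraries of mouse CD8+ T cells were used, 3 per group, with groups taken from the labels. The submitters' processing notes name the build mm10 and the tools MACS2 2.2.7.1, Bowtie 1.1.2, cutadapt 2.8 and Trim Galore 0.6.5. Not given in the sources used here are read shifting, duplicate removal and the MACS2 mode. The authors deposited 1 list per library, called at a q-value of 0.05, with each peak's position, summit, pileup (a coverage signal), fold over local background (a ratio), and p-value and q-value as −log10, per the file headers. Every such value is the authors'. Starts count from 0 in the files, as read from the values, and from 1 here.

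Peaks went to the nearest protein-coding gene body in a RefSeq table of GRCm38.p6, the assembly of mm10, which gives neither exons nor introns. A region took the gene of its highest summit. A library's height in a region was its highest pileup there, quantile-normalised over the 56610 regions held by all 6 lists. The log2 heights were fitted with limma 3.58.1 (empirical Bayes with trend) in R 4.3.3, tested on simulated data, and p-values were adjusted over all those regions. Values with 1 number per library were tested by exact permutation, two-sided, in Python 3.11.15. Alternatives were q of 0.01 and 0.001, equal numbers of peaks, a 20 kb gene distance, merging across 200 bp, 50% coverage, median scaling, fold in place of pileup, a replicate block and leaving out each library.

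The members and gene lists were chosen with earlier results of these data known. Of the receptor regions, those named are the 2 tallest of each gene, the one closest to its start, those of 1 group and those past the threshold. For Cxcr5 the region closest to either boundary of the gene stood in for the one closest to its start. The other regions of Cxcr4, Ccr8 and Cx3cr1 were named after their values were seen. A gene of a pathway list is named where it has a region of 1 group or past the threshold. The result of 1 gene of these lists is not reported here.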

Additional observations from a re-analysis of the deposited data

How the results depend on the processing

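The mean share of receptor peaks per 1000 was lower with Res-shFabp7 under every alternative run (−0.105 to −0.0406 per 1000), and 35 to 54 receptor regions were open throughout. The smallest difference in share was with equal numbers of peaks. There the shares were 0.828, 0.816 and 0.730 with Res-shFabp7 and 0.791, 0.852 and 0.852 with Res-ctrl, so the groups overlapped (exact permutation p = 0.5). With equal numbers of peaks the difference in receptor peaks turned to −3.33, and those of Cxcr4 and Ccr4 each to −0.333; Cxcr5 ran from −0.5 without Res-ctrl replicate 1 to 1.5 without Res-ctrl replicate 3. Receptors whose libraries did not overlap numbered 1 with equal numbers or a 20 kb distance. Regions called only with Res-shFabp7 numbered 2 at q 0.001 or 50% coverage, and those only with Res-ctrl 0 at 50% coverage. By height, median scaling gave 1 receptor region lower and 2010 of all regions lower, and fold over background gave 0 receptor regions higher, 0 of all regions higher and 0 of all lower, and the cause was not tested. Leaving out each library gave a difference of 1.83 to 5.83 receptor peaks, 2 to 4 receptors without overlap, 1 to 4 regions only with Res-shFabp7, 1 to 2 only with Res-ctrl, 1 to 5 receptor regions higher and 0 to 1 lower, and 462 to 2217 of all regions higher and 248 to 917 lower. The lowest counts of all regions came without Res-shFabp7 replicate 1, and the highest without Res-ctrl replicate 3. For receptors without overlap and regions of 1 group, the shares of all genes and regions with a library left out are not given.

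The labels do not say whether libraries of equal replicate number belong together. Deviations from the group means correlated at −0.0323, 0.0281 and −0.0176 for equal numbers, and at −0.0518 to 0.0690 for unequal ones. With 3 libraries a group these values cannot show whether the libraries were paired. With the replicate block, 3 receptor regions were higher and 0 lower, and 1919 of all regions higher and 874 lower. The block left the differences at 3.33 receptor peaks (exact permutation p = 0.5) and −0.094 per 1000 (exact permutation p = 0.25, the smallest that 3 pairs allow), and changed no call at a receptor region. Res-ctrl replicates 1 and 2 were shallow, so a missing weak peak there is not shown to be closed chromatin.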
